A study of Homo sapiens with 2 samples.

Results

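The regions described are ChIP-seq peaks that were annotated to a UTR or an exon of a gene and to no promoter. A peak was included when the deposited annotation listed at least 1 entry in a 5' UTR, a 3' UTR or an exon and no promoter entry, when it lay on chromosomes 1 to 22 or X, and when it was not in a dense group of 5 or more peaks separated by gaps of at most 100000 bp. On these criteria 230 of the 1900 listed peaks were retained (12.1%, 95% Wilson interval 10.7 to 13.6%). The regions were therefore chosen by measured values, namely the peak positions and the summits of this same experiment, and their place relative to the annotated gene is a description and not a test. The peaks came from CAL27, an established line of human tongue carcinoma, infected with lentivirus to express KLF7 with a myc tag, and the experiment asked where the tagged factor meets the genome. Chromatin fixed with 1% formaldehyde was precipitated with an antibody against Myc (CST, D3N8F) in 1 library and sequenced without antibody as the input in 1 library, both from cells carrying the transgene. Neither library was replicated, and cells lacking the myc-KLF7 transgene were not analysed here, so signal of the tagged protein cannot be told apart from other signal of the antibody. The intervals given below cover counting error only.

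A protein-coding gene begins with the transcription start site, from which the 5' UTR is transcribed, and the start codon follows at the end of that UTR. RNA polymerase II is loaded around the start site, and many transcription factors bind on either side of it, where human genes often lie in CpG islands. KLF7 is a zinc finger factor of the Krüppel-like family, whose members recognise GC-rich boxes, whereas MYC with its partner MAX recognises the E-box CACGTG. A peak annotated to a 5' UTR or a first exon may therefore lie as close to a start site as a peak annotated to a promoter.

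The sequences under the summits are shown first, because the motifs they hold are described below apart from the annotation. Of the 230 peaks, 91 (39.6%) had CACGTG or GGGGCGGGG no more than 100 bp from the summit, so most held neither. For CACGTG, 11 peaks with a copy close to the summit are given as 30 bases of GRCh38, on the strand of the gene, with the E-box in capitals.
ENTPD6, chr20:25195688-25195717, plus strand: agcctgtgacgcCACGTGcatggggcggag
MATR3, chr5:139274141-139274170, plus strand: cggagctccgaaCACGTGcgcgtgagtaag
EARS2, chr16:23557348-23557377, minus strand: cagggagaagccCACGTGtgctattccatc
AC087190.3, chr16:9068613-9068642, plus strand: accacatgtcatCACGTGgaaggcagaagc
LTBP4, chr19:40605416-40605445, plus strand: atggtgagcgtcCACGTGgagcacccgcag
TUBGCP6, chr22:50219519-50219548, minus strand: gccagttcccagCACGTGctccatctcctg
GIT1, chr17:29582019-29582048, minus strand: accacacctctgCACGTGgctgccaaggca
NOL6, chr9:33473894-33473923, minus strand: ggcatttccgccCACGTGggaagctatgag
IL12A, chr3:159988940-159988969, plus strand: ccggccgcaccgCACGTGtcaccgagaagc
EIF4G1, chr3:184314527-184314556, plus strand: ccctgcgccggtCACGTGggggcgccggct
MED11, chr17:4731850-4731879, plus strand: gcttcagtgcaaCACGTGgaggcggagctg
In these 11 peaks the centre of the E-box lay 2.5 to 9.5 bp from the summit. The summits of ENTPD6, MATR3, EARS2, NOL6, IL12A and EIF4G1 lay in a 5' UTR in GENCODE v44, those of LTBP4, GIT1 and MED11 in coding exons, and those of AC087190.3 and TUBGCP6 in non-coding exons. For the longer GC box GGGGCGGGG, the 6 peaks with the closest copy are given in the same way, with the box in capitals. All 6 read CCCCGCCCC on the strand of the gene, whereas over the 42 peaks with this box 25 closest copies read GGGGCGGGG on the strand of the gene and 17 read CCCCGCCCC.
AKR1A1, chr1:45550787-45550816, plus strand: ggcgaggctggCCCCGCCCCttgcaccgcc
FUT8-AS1, chr14:65412613-65412642, minus strand: ccagggattctCCCCGCCCCcttcctcgct
PRMT3, chr11:20387695-20387724, plus strand: cccaacccggtCCCCGCCCCcagacacgcc
EXD2, chr14:69191749-69191778, plus strand: cctgcccctctCCCCGCCCCtcggcgtgac
PTBP3, chr9:112333617-112333646, minus strand: gcgtgcccggtCCCCGCCCCtgttcccact
HEXDC, chr17:82418318-82418347, plus strand: gtcgggccaggCCCCGCCCCatcagcccca

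Most of these peaks belonged to the beginning of genes. A 5' UTR entry was present in 146 peaks (63.5% of the 230, 95% Wilson interval 57.1 to 69.4%). Another 77 had only an exon entry, and 7 had a 3' UTR entry and no 5' UTR entry. Of the 230 peaks, 168 stood alone with no other peak within the joining gap, 45 lay in a pair, 10 in a group of 3 and 7 in a group of 4. Just inside that limit, in groups of 4, were the peaks of EIF4G1, INTS1, TUBGCP6, ABCF3, TIPARP-AS1, AL732292.2 and FP700125.1, with fold enrichments from 3.95 to 8.83. Just outside it, 9 peaks with a UTR or exon entry were dropped, and those in groups of 5 were at SUN1, RRP1 and AC087749.1. The SUN1 peak had a fold enrichment of 11.5 and a pileup of 43 fragments, both above every value among the 230.

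The gene named in the UTR or exon entry was found in GENCODE v44 for 227 of the 230 peaks, of which 209 were protein-coding genes, 17 long non-coding RNA genes and 1 a processed pseudogene. FLJ37453, AC027290.2 and AC092171.3 were not matched and have no distance. The distance was taken from the summit to the nearest transcript start of that gene, counted positive downstream. Its median was 10 bp (95% interval of the median 6 to 18 bp, n = 227), with 25% of the summits at or below -12.5 bp and 25% at or above 65 bp. Within 50 bp of a start on either side lay 121 summits (53.3%, 46.8 to 59.7%), within 100 bp 161 summits (70.9%, 64.7 to 76.4%) and within 200 bp 185 summits (81.5%, 75.9 to 86.0%). The summits thus straddled the nearest start: 84 lay upstream of it, 5 on it and 138 downstream. Of the 84 upstream summits, 60 were still inside the gene, ahead of a transcript start lying further in, and 24 were outside the GENCODE gene altogether.

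**Figure D1:**
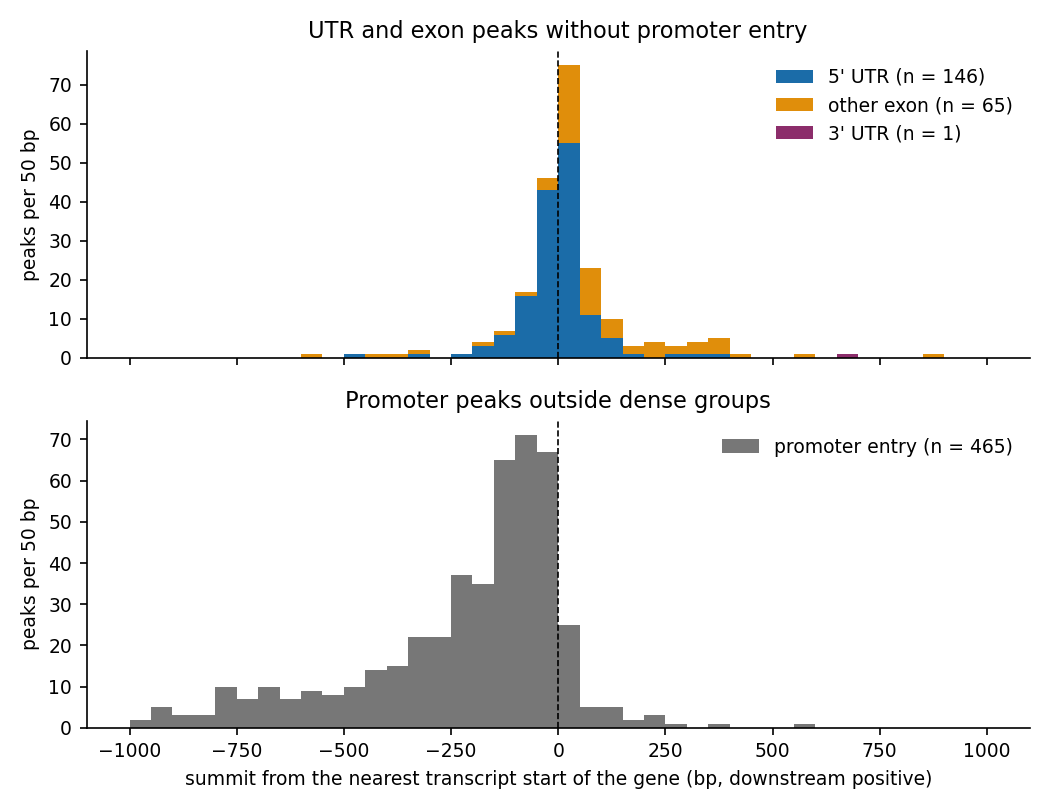
Number of summits per 50 bp of distance from the nearest transcript start of the annotated gene, downstream positive, for UTR and exon peaks (above, stacked by entry class) and for promoter peaks outside dense groups (below). Of the UTR and exon peaks, 212 lay within the 1000 bp drawn on either side and gathered around the start, and 465 promoter peaks lay mostly upstream of it.

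The distance depended on which start was used, since a gene with many annotated transcripts offers many starts and the nearest is the closest by construction. From the gene start listed with the peak, available for the 192 peaks whose UTR or exon gene was also the nearest gene, the median was 147 bp (116 to 188 bp), and all 192 summits lay downstream, from 1 to 25277 bp. From the outermost start of the GENCODE gene the median was 137 bp (105 to 213 bp). From the canonical transcript of the 209 protein-coding genes it was 32 bp (11 to 49 bp). All these medians were downstream of the start, and they ranged from 10 to 147 bp. For the promoter peaks the corresponding median from the nearest transcript start was -155 bp (-179 to -136 bp, n = 503), and from the table's gene start 350 of 410 summits lay upstream. The side of the gene start is what the annotation used to separate the promoter entries from the others, so this contrast is no result of its own.

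Position differed in size between the entry classes. Peaks with a 5' UTR entry had a median of 0 bp from the nearest start (-3 to 6 bp, n = 146), all of them within 500 bp, with 71 upstream, 4 on the start and 71 downstream. Peaks with only an exon entry had a median of 55 bp (44 to 84 bp, n = 74), with 60 downstream. The 7 peaks with a 3' UTR entry and no 5' UTR entry lay 666 to 130365 bp downstream. Relative to the start codon of the canonical transcript, 142 of 144 summits with a 5' UTR entry lay upstream, with a median of -376 bp (-571 to -202 bp). Of the 58 summits with only an exon entry and a known start codon, 48 lay downstream of it, with a median of 123.5 bp (42 to 365 bp). A 5' UTR lies ahead of the start codon by definition, so this contrast follows from the entry classes and is no result of its own.

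GENCODE v44 was used to see what lies at each summit, as a check of the deposited labels. It places 121 of the 227 summits in a 5' UTR, 52 in a coding exon, 20 in a non-coding exon, 8 in a 3' UTR and 2 in an intron of the gene, and 24 outside it. All 24 outside had a 5' UTR entry in the deposited table, and their median distance from the nearest start was -51.5 bp (-87 to -38 bp). They included NRAS, LDHA, YWHAE, RAN, ALDOC, TRA2B, ATG12 and PANK3. In the first exon of a transcript lay 174 summits, and 27 lay in a later exon. Among the peaks with only an exon entry, 48 of 74 summits were in a coding exon and 57 of 74 in a first exon.

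Most of these peaks rested on few fragments. The pileup, a count of the ChIP fragments that overlap the summit, ranged from 7 to 41 with a median of 12 (95% interval of the median 12 to 13), and 198 of the 230 peaks (86.1%, 81.0 to 90.0%) had a pileup of at least 10, against 89.0% of all 1900 listed peaks. The fold enrichment, the pileup over the local background with 1 added to each, ranged from 3.28 to 11.0 with a median of 5.32 (5.13 to 5.48). It was at least 5 in 145 peaks (63.0%, 56.6 to 69.0%), against 52.5% of all listed peaks, dense groups included. Outside those groups this share was 58.6% (54.4 to 62.6%) in promoter peaks and 58.0% (53.4 to 62.4%) in intron-only peaks, with overlapping intervals. In intergenic peaks it was 46.1% (40.8 to 51.5%). A q-value under 0.001 was reached by 184 peaks (80.0%, 74.4 to 84.7%), against 81.7% of all listed peaks. Outside the dense groups, the median fold enrichment was 5.27 (5.13 to 5.39) in 543 promoter peaks, 5.19 (5.07 to 5.32) in 452 intron-only peaks and 4.87 (4.67 to 5.06) in 332 intergenic peaks. The intervals of the first 2 of these classes overlapped that of the UTR and exon peaks. The 5' UTR peaks and the exon peaks had medians of 5.32 each. The peaks were 190 to 719 bp long (median 257.5 bp).

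**Figure D2:**
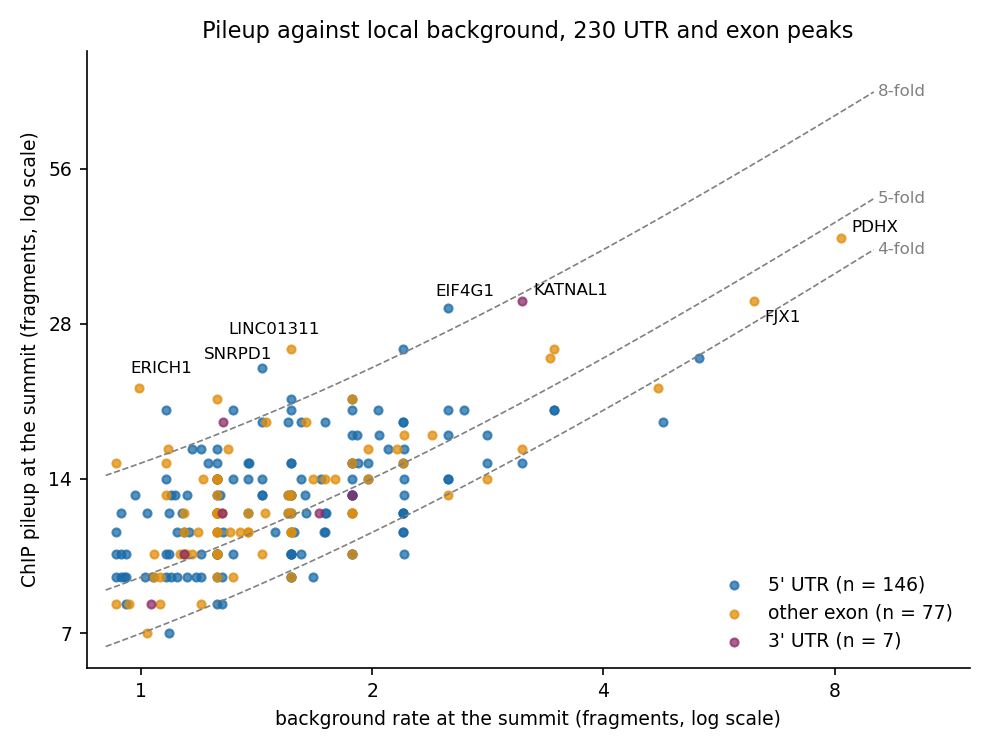
ChIP pileup at the summit against the local background rate, both in fragments on a log scale, for the 230 UTR and exon peaks coloured by entry class; dashed lines mark fold enrichments of 4, 5 and 8. Pileups lay between 7 and 41, and PDHX had the highest pileup and the highest background rate.

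The highest fold enrichments were found at genes of several functions. The peak of ERICH1, in its first coding exon on chromosome 8 from 730973 to 731397, had 11.0-fold enrichment with a pileup of 21 fragments (exact 95% Poisson interval 13.0 to 32.1). That of LINC01311, a long non-coding RNA gene on chromosome 22, from 19171491 to 19171801, had 10.1-fold enrichment with a pileup of 25 (16.2 to 36.9). That of SNRPD1, which encodes a core protein of the spliceosomal snRNPs, lay in the 5' UTR from 21612210 to 21612649 on chromosome 18, 98 bp downstream of the start, with 9.85-fold enrichment and a pileup of 23 (14.6 to 34.5). The Poisson intervals of these 3 pileups overlapped. PUF60, a splicing factor, had 9.63-fold enrichment and a pileup of 19 (11.4 to 29.7). SMYD5, a lysine methyltransferase, had 9.30-fold enrichment and a pileup of 20 (12.2 to 30.9) in its first coding exon.

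EIF4G1 encodes the scaffold on which the cap-binding translation initiation complex assembles. Its peak, on chromosome 3 from 184314367 to 184314687, had its summit on a transcript start, with a pileup of 30 (20.2 to 42.8), 8.83-fold enrichment and the highest -log10 q of the 230, 17.8. NRAS, a GTPase of the RAS family, had 8.63-fold enrichment and a pileup of 19 (11.4 to 29.7) with its summit 84 bp upstream of the start on chromosome 1. YWHAE, which encodes the 14-3-3 epsilon protein, had 8.17-fold enrichment and a pileup of 20 (12.2 to 30.9). YDJC had 8.33-fold enrichment and a pileup of 18 (10.7 to 28.4). AC010595.1, a long non-coding RNA gene, had 8.30-fold enrichment with a pileup of 15 (8.40 to 24.7), and 96.7% of the 31-base words under its peak occur at 2 or more places in GRCh38. It was the only peak of the 230 with over 50% repeated words, against 204 of the 332 intergenic peaks, and whether the reads at AC010595.1 come from another copy was not tested.

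A high pileup was not the same as a high fold enrichment. PDHX, which encodes a component of the pyruvate dehydrogenase complex, had the highest pileup of all, 41 fragments (29.4 to 55.6), but its background rate was 8.16 fragments, against a median of 1.44 over the 230 peaks, and its fold enrichment was 4.58. The PDHX summit lay 142 bp upstream of the nearest PDHX start, with a transcript start of another gene 97 bp away. The nearest gene listed with this peak was APIP. FJX1 had a pileup of 31 (21.1 to 44.0) over a background rate of 6.28, which is 4.40-fold. NAT10, an RNA acetyltransferase, had a pileup of 19 (11.4 to 29.7) over a rate of 3.45, which is 4.49-fold. These 3 genes lie on chromosome 11, and within 1500000 bp of the PDHX summit 11 other listed peaks had background rates of at least 2.20. Whether the copy number of this stretch is raised in CAL27 was not tested. A background rate over 3 was found at 12 of the 230 peaks, with pileups of 15 to 41 and fold enrichments from 3.28 to 7.73.

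The weakest peaks stood close to the calling threshold of q = 0.05. CTSC, which encodes the lysosomal protease cathepsin C, had a q-value of 0.0447 with a pileup of 10 (4.80 to 18.4) and 3.44-fold enrichment. PANK3, an enzyme of coenzyme A synthesis, had a q-value of 0.0433 with a pileup of 7 (2.81 to 14.4). ASIC3, an acid-sensing ion channel, had 0.0294 with a pileup of 7. SEC11A, a subunit of the signal peptidase, and SRRT, a partner of the nuclear cap-binding complex, had q-values of 0.0272 and 0.0213. In all, 15 of the 230 peaks had a q-value of 0.01 or more, and 32 had a pileup under 10.

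The E-box was found near the summit in about the same share as in the promoter class. CACGTG, which reads the same on both strands, was wholly inside the 100 bp on either side of the summit in 59 of the 230 peaks (25.7%, 95% Wilson interval 20.4 to 31.7%), against 20.0% of the 1796 listed peaks on these chromosomes. Outside dense groups it was present in 27.4% of promoter peaks (149 of 543, 23.9 to 31.3%), 22.1% of intron-only peaks (100 of 452, 18.5 to 26.2%) and 10.2% of intergenic peaks (34 of 332). Windows of the same length were placed around the canonical starts of 19962 protein-coding genes, at these summits' distances from their nearest transcript starts. Of these windows, 4.94% held the E-box. GC content was not matched in the windows. Its median within 100 bp of the 230 summits was 70.1%, and its part in the E-box shares was not tested. Measured from canonical starts instead, the summits had a median distance of 32 bp rather than 10 bp, so the windows match the peaks only roughly. Of all 27305 RefSeq promoters, from 250 bases before to 50 after the start, 7.43% held the E-box. Of the 192 promoters found for the genes of the 230 peaks 40 did (20.8%, 15.7 to 27.1%). Many of these promoters cover the same bases as the summit windows, so their share recounts some of the same copies. By class, it was present in 35 of 146 peaks with a 5' UTR entry, 22 of 77 with only an exon entry and 2 of 7 with a 3' UTR entry. A match is a sequence and not an occupied site.

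**Figure D3:**
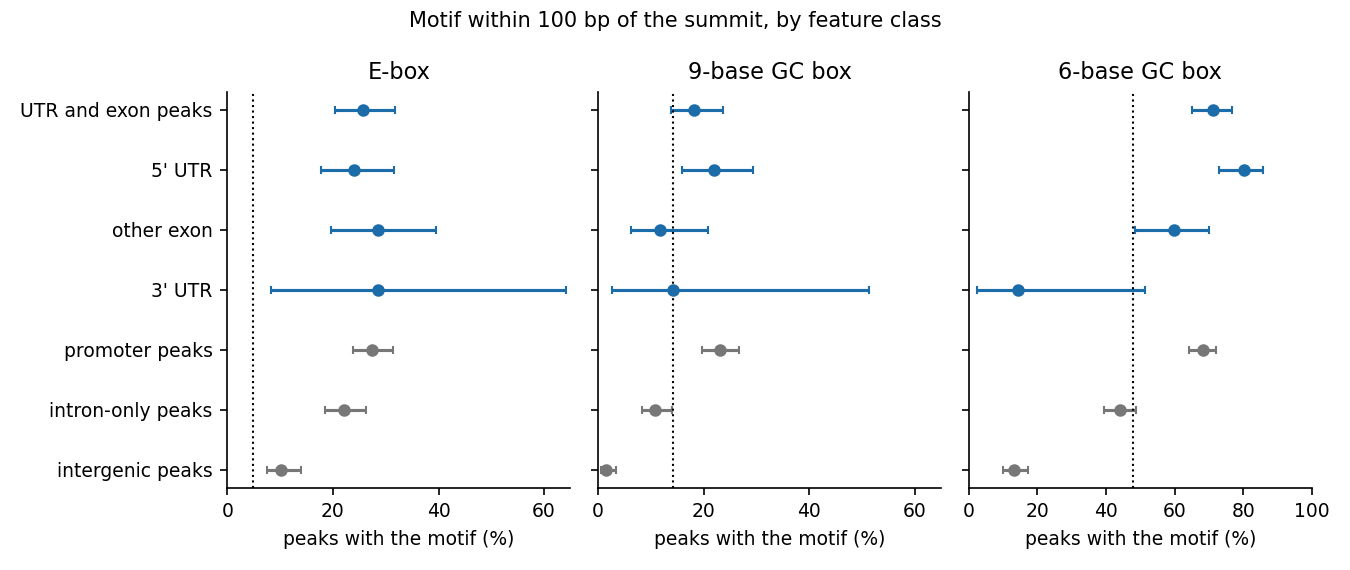
Percent of peaks with the E-box CACGTG, the 9-base GC box GGGGCGGGG or the 6-base GC box GGGCGG within 100 bp of the summit, with 95% Wilson intervals, for the UTR and exon peaks and their classes (blue) and other peaks outside dense groups (grey). The dotted line is the share among windows around canonical protein-coding starts, placed at these summits' distances from their nearest transcript starts: 4.94%, 14.2% and 47.9%.

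The E-boxes lay close to the summits. Where the sequence was present, the closest copy had its centre 25.5 bp from the summit at the median (19.5 to 36.5 bp, n = 59), and in 28 peaks it was within 25 bp. In promoter peaks the median was 26.5 bp (22.5 to 32.5 bp, n = 149). Of the 59 peaks, 53 held 1 copy, 5 held 2 and TUBGCP6 held 3. Among the 54 copies within 500 bp of a transcript start, 27 were upstream and 27 downstream, with a median position of -2 bp. These positions were counted from the transcript start nearest to the summit, so copies near the summit fall on both sides of it largely by construction. The annotation placed the peaks downstream of another start, the gene start listed with the peak, so the even division is no result of its own. Of 66 copies, read on either strand, 21 were flanked by C before and C after, the most common pair, 13 by C before and G after, 9 by G before and C after, and 1 by T before and A after.

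**Figure D4:**
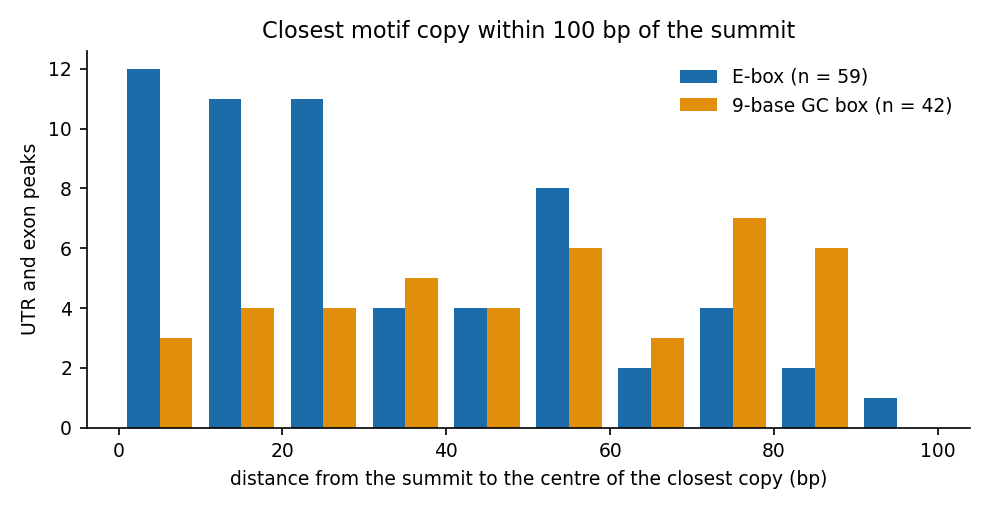
Number of UTR and exon peaks by the distance in bp from the summit to the centre of the closest E-box (blue, n = 59) or 9-base GC box (orange, n = 42), in steps of 10 bp. The E-box counts are highest in the 3 steps nearest the summit, with 12, 11 and 11 peaks, and the GC box counts range from 0 to 7 per step, with 3, 4 and 4 in those steps.

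The E-box was found among weak and strong peaks alike. CACGTG was present in 14 of the 77 peaks with the lowest fold enrichment (18.2%, 11.2 to 28.2%), in 22 of 76 in the middle (28.9%, 20.0 to 40.0%) and in 23 of 77 with the highest (29.9%, 20.8 to 40.8%), and the 3 intervals overlap. It was present in 47 of 185 peaks within 200 bp of a start and in 12 of 42 farther away. By the element at the summit, 17 of 52 in a coding exon held it (32.7%, 21.5 to 46.2%) and 28 of 121 in a 5' UTR (23.1%, 16.5 to 31.4%). EIF4G1, MRPL3, MIF, NRAS and LDHA were among the strongly enriched peaks with an E-box, whereas ERICH1, LINC01311 and SNRPD1 had none within 100 bp.

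GC boxes were found in most of the peaks with a 5' UTR entry. At most 100 bp from the summit, GGGGCGGGG was found in 42 peaks (18.3%, 13.8 to 23.8%). It was found in 12.4% of the listed peaks on these chromosomes, 14.2% of the start windows described above and 16.0% of all RefSeq promoters. In promoter peaks outside dense groups it was found in 125 of 543, a higher share (19.7 to 26.7%) with an overlapping interval. The shorter GGGCGG, which is contained in it, was present in 164 peaks (71.3%, 65.1 to 76.8%), against 45.3% of the listed peaks, 47.9% of the start windows and 44.6% of RefSeq promoters. Promoter peaks held it in about the same share, 68.3% (371 of 543, 64.3 to 72.1%). Of the 192 RefSeq promoters of the genes of these peaks, 64 held GGGGCGGGG (33.3%) and 156 held GGGCGG (81.3%, 75.1 to 86.1%), partly in the same bases. Near the summit, GGGCGG was present in 117 of 146 peaks with a 5' UTR entry, 46 of 77 with only an exon entry and 1 of 7 with a 3' UTR entry. Within 200 bp of a start 143 of 185 peaks held it, and farther away 19 of 42. GC content moved with these shares. Its median from 100 bases before to 100 after the summit was 71.1% in the 5' UTR class, 69.7% in the exon class and 46.8% in the 3' UTR class, and its part in the motif shares was not tested. The closest GGGGCGGGG lay 50.5 bp from the summit at the median (38 to 64 bp, n = 42), and 10 peaks held both this box and an E-box.

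The genes at these peaks were read against lists of growth and housekeeping functions. At least 1 list held a gene of 83 of the 230 peaks (36.1%, 30.2 to 42.5%), against 363 of the 1796 listed peaks (20.2%), a number that includes intergenic peaks naming no gene. The share on at least 1 list was not computed for promoter peaks alone. The lists were written with part of the listed peaks already seen, so the shares for each list are a description and not a test. They were matched by patterns of gene symbols and do not take in every gene of a function. The translation list, with ribosomal proteins, translation factors and most aminoacyl-tRNA synthetases, had 10 peaks (4.35%), against 50 of the 1796 listed peaks (2.78%) and 9 of 543 promoter peaks (1.66%). Their median fold enrichment was 6.31, against 5.32 over the 230 peaks. EIF4G1 led, followed by MARS2 and EARS2, the mitochondrial synthetases for methionyl-tRNA and glutamyl-tRNA, at 7.70-fold with a pileup of 15 (8.40 to 24.7) and 7.20-fold with a pileup of 15. NACA, a subunit of the complex that meets nascent chains at the ribosome, had 6.65-fold enrichment and a pileup of 14 (7.65 to 23.5), with its summit 1 bp upstream of the start. The other 6 were EIF4B, RPL36, RPL18, PABPC1, RPS19 and VARS2, from 4.32-fold to 6.47-fold. FARSB, a subunit of phenylalanyl-tRNA synthetase, had 5.55-fold enrichment with a pileup of 15 but is not counted, since its symbol was not in the list.

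Ribosome and tRNA maturation was represented by 11 peaks (4.78%), against 37 of the 1796 (2.06%) and 7 of the 543 promoter peaks (1.29%), with a median fold enrichment of 4.91. Of these 11, 8 held an E-box within 100 bp, against 59 of the 230 peaks (25.7%) and 25 of the 83 on any list. DIMT1, which methylates 18S rRNA, had 6.68-fold enrichment with a pileup of 13 (6.92 to 22.2). WDR43, a factor of rRNA transcription and processing, had 5.48-fold enrichment, and PUS7, a pseudouridine synthase, 5.38-fold. DPH2, an enzyme of diphthamide synthesis on elongation factor 2, had 5.01-fold enrichment, with its summit 3 bp upstream of the start. The remaining peaks were at NOB1, NOL6, TRMT2A, DKC1, POLR1B, FBL and NAT10, none of them above the fold enrichment of DPH2, and the lowest was NAT10 at 4.49-fold.

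Metabolic genes formed a further group. Glycolysis, nucleotide and amino acid genes had 10 peaks (4.35%), against 35 of the 1796 (1.95%) and 6 of the 543 promoter peaks (1.10%). All 10 were at least 5-fold enriched, against 145 of the 230 peaks (63.0%). LDHA, lactate dehydrogenase A, led with 7.84-fold enrichment and a pileup of 16 (9.15 to 26.0), its summit 26 bp upstream of the start. SLC38A1, a glutamine transporter, and ALDOC, a glycolytic aldolase, had 5.76-fold enrichment and a pileup of 12 each. SLC3A2, the heavy chain of several amino acid transporters, had 5.71-fold enrichment in a coding exon. Mitochondrial genes had 5 peaks (2.17%), against 30 of the 1796 (1.67%) and 12 of the 543 promoter peaks (2.21%). MRPL3, a protein of the large mitochondrial ribosomal subunit, had 8.13-fold enrichment with a pileup of 25 (16.2 to 36.9), 23 bp downstream of a start. SLC25A39, a mitochondrial carrier of glutathione, had 6.22-fold enrichment, MTG1, a GTPase of mitochondrial ribosome assembly, 5.39-fold, and PDHX 4.58-fold.

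**Figure D5:**
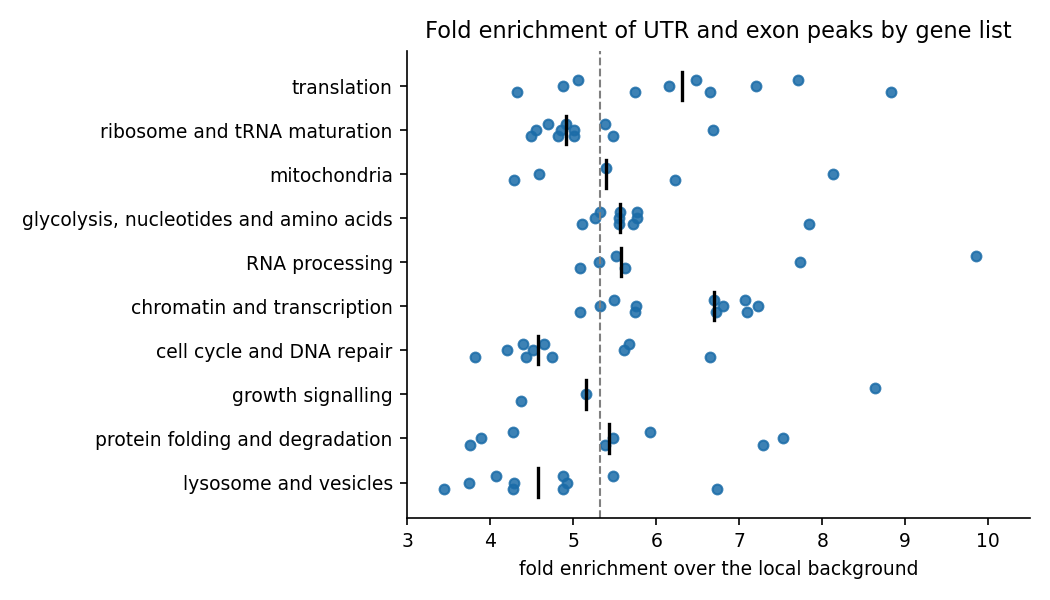
Fold enrichment over the local background of each UTR and exon peak whose gene is on a list, with the list's median as a black bar and the median of all 230 peaks, 5.32, as a dashed line. Medians ran from 4.58 for lysosome and vesicles to 6.69 for chromatin and transcription, and the points of different lists overlap.

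Genes of chromatin and transcription had 11 peaks (4.78%), against 34 of the 1796 (1.89%) and 11 of the 543 promoter peaks (2.03%). Their median fold enrichment was 6.69, and all 11 were at least 5-fold enriched, against 63.0% of the 230 peaks. SMYD5, described above, is not on this list. SETD6, a lysine methyltransferase, had 7.22-fold enrichment with a pileup of 14 (7.65 to 23.5). POLR2I, a subunit of RNA polymerase II, had 7.09-fold, TDRD3, a reader of methylated arginine, 7.06-fold and MED11, a subunit of Mediator, 6.81-fold. The RNA processing list had 6 peaks (2.61%), against 45 of the 1796 (2.51%) and 15 of the 543 promoter peaks (2.76%), which is close to the background share. PUF60, a splicing factor described above, is not on this list and not counted. After SNRPD1, the highest on the list, PRMT3, an arginine methyltransferase, had 7.74-fold enrichment, DDX1, an RNA helicase, 5.62-fold and TRA2B, a splicing regulator, 5.52-fold. None of the 6 held an E-box within 100 bp, against 25.7% of the 230 peaks.

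Cell cycle and DNA repair had 10 peaks (4.35%), against 42 of the 1796 (2.34%) and 12 of the 543 promoter peaks (2.21%), with a lower median of 4.58-fold. MCM3, a subunit of the replicative helicase, had 6.65-fold enrichment with a pileup of 14 (7.65 to 23.5). RAN, the GTPase of nuclear transport, had 5.66-fold, PARP1, which detects DNA breaks, 5.61-fold and CDC16, of the anaphase-promoting complex, 4.75-fold. Growth signalling had 3 peaks (1.3%), at NRAS, STK24 and STK35, against 18 of the 1796 (1.00%) and 5 of the 543 promoter peaks (0.921%), which is close to the background share. STK35 is a kinase with 4.37-fold enrichment and a pileup of 8 (3.45 to 15.8). Protein folding and degradation had 8 peaks (3.48%), against 43 of the 1796 (2.39%) and 11 of the 543 promoter peaks (2.03%). They were led by CCT8, a subunit of the cytosolic chaperonin, at 7.53-fold with a pileup of 16 (9.15 to 26.0). KLHL31 followed at 7.28-fold, OTUB1, a deubiquitinase, at 5.92-fold and MIB2, a ubiquitin ligase, at 5.48-fold. The KLHL31 summit lay in a coding exon, 3169 bp downstream of the nearest start. Under the MIB2 peak 27.5% of the 31-base words were repeated, and the nearest gene listed with it was MMP23B.

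The list of lysosome and vesicle genes had 10 peaks (4.35%), against 30 of the 1796 (1.67%) and 9 of the 543 promoter peaks (1.66%). Of the 10, 2 were at least 5-fold enriched, against 63.0% of the 230 peaks. The list took any numbered TMEM gene, and TMEM222, at 6.73-fold, TMEM65, TMEM250 and TMEM62 entered it on that ground. ATG12, which is conjugated to ATG5 in autophagy, had 5.48-fold enrichment with a pileup of 13 (6.92 to 22.2), in a peak that also covered the start of AP3S1. VPS13A, a lipid transfer protein, had 4.92-fold and TMED3, a cargo receptor of early secretory vesicles, 4.88-fold. None of the 10 held an E-box within 100 bp, against 25.7% of the 230 peaks. An E-box was held by 3 of 10 peaks for translation, 4 of 10 for metabolism and 3 of 11 for chromatin. For cell cycle it was 3 of 10, protein folding 2 of 8, mitochondria 1 of 5 and growth signalling 1 of 3. At least 5-fold enriched were 8 of 10 for translation, 5 of 11 for ribosome maturation and 6 of 6 for RNA processing. For cell cycle this was 3 of 10, protein folding 5 of 8, mitochondria 3 of 5 and growth signalling 2 of 3. On the list of epithelial adhesion genes, which holds integrins, laminins, keratins and cadherins, there was no peak among the 230, against 13 of the 1796 and 3 of the 543 promoter peaks. The upper Wilson limit of 0 of 230 is 1.64%, and a limit of 3 counts gives 1.3%.

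The 5 summits farthest downstream of the nearest start of their own gene all had a 3' UTR entry, a label that itself places a peak toward the end of a transcript. A 3' UTR entry was present in 8 peaks, including that of IPO4, an importin, whose entry concerned the overlapping gene AL136295.4 and whose summit lay 6 bp upstream of the IPO4 start. KATNAL1, of the family of microtubule-severing katanins, had 7.73-fold enrichment and a pileup of 31 (21.1 to 44.0), 4901 bp downstream of the nearest start, and 25.8% of the 31-base words under it were repeated. TNFRSF8, which encodes the receptor CD30, had 5.71-fold enrichment and a pileup of 12 (6.20 to 21.0), 17825 bp downstream. Both summits were in the 3' UTR by GENCODE as well. STK24, a serine/threonine kinase, had 5.15-fold enrichment at 18500 bp, yet a transcript start of another gene lay 132 bp away. RAD51D, a recombination protein, had 4.43-fold enrichment and a pileup of 8 (3.45 to 15.8) at 24055 bp, with a transcript start of another gene 1193 bp away. SDR42E2 and ZBTB20, a zinc finger repressor, had 4.86-fold and 4.80-fold enrichment at 28182 and 130365 bp. Transcript starts of other genes lay closer to these 2 summits, at 15168 and 3196 bp. The YDJC summit was 666 bp downstream of the nearest start, in a coding exon by GENCODE. Of the 230 summits, 7 lay over 2000 bp from a transcript start of any gene. Among these 7, the peaks of KLHL31, ADAMTS16 and SHANK3 had only an exon entry.

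Some peaks served more than 1 gene. In 8 peaks the UTR or exon entries named protein-coding genes on both strands, so the fragments cannot be assigned to either gene. They were at UBFD1 and EARS2, TBCB and POLR2I, ANKMY1 and DUSP28, NRL and DCAF11, RPL18 and SPHK2, ATG12 and AP3S1, RBM18 and MRRF, and GTF3C4 and DDX31, with fold enrichments from 5.09 to 7.20. This count covers UTR and exon entries only, so further peaks may lie at more than 1 gene. The UTR or exon gene was also the nearest gene at 192 of the 230 peaks. Elsewhere another gene could be nearest, such as APIP at PDHX, RAD17 at AK6 and BRD9 at TRIP13. PPP1R18, a regulator of protein phosphatase 1, was the only gene with 2 of the 230 peaks. Their summits were on chromosome 6 at 30686714 and 30687572, with pileups of 12 (6.20 to 21.0) and 17 (9.90 to 27.2) and fold enrichments of 5.47 and 5.13. At 14 of the 230 peaks a listed peak of another class named the same gene. The second peak was 500 bp away at EIF4G1 and 664 bp away at YWHAE, with 4.20-fold and 3.87-fold enrichment, lower than the UTR peaks. At RAN, 793 bp away, the intron peak had 9.70-fold enrichment, against 5.66-fold for the UTR peak. In 5 of the 14 pairs the UTR or exon peak had the higher fold enrichment.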

How the data were processed

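The data comprised 1 anti-MYC ChIP library and 1 input library of CAL27 cells expressing myc-KLF7. According to the methods, the authors filtered reads with Trimmomatic 0.36, mapped them with BWA 0.7.15, removed duplicates with Samtools 1.3.1 and called peaks with MACS2 2.1.1.20160309 at a q-value of 0.05. The submitters' processing notes also name FastQC, ChIPseeker and the build hg38. The deposited pileup is a coverage signal: ChIP fragments over the summit. Fold enrichment, as the authors deposited it, is a ratio with the pileup plus 1 above and the local background plus 1 below. Significance was deposited as -log10 of the peak caller's p and q. Read totals were not used here, so the depth is known only through the pileups, whose median was 12 fragments over the 230 peaks.

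Background rates were recovered as (pileup + 1) / fold enrichment - 1. Peak positions were counted from 1, and the gene starts inside the table, counted from 0, were shifted by 1. Genes were matched to GENCODE v44 by name, by the identifier in the table or by an unambiguous RefSeq synonym. Where entries named several genes, the gene with the start nearest to the summit was used. Sequences were read from GRCh38, with none printed from chromosome 8, for the peaks with the motif closest to the summit (1 of the 12 closest E-boxes is not reported here), and promoters were those of RefSeq on the same build. Motifs were searched on both strands. A word of 31 bases was called repeated when found at 2 or more places. The start windows used the 216 distances from the nearest transcript start that were within 2000 bp. Each was laid at every canonical start, the starts under these peaks included. Shares have 95% Wilson intervals, medians order-statistic binomial intervals and pileups exact Poisson intervals. With 1 library pair no test between conditions was possible, and none was run.

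The peaks and gene lists were chosen with earlier results of these data known, and part of the peaks had been seen when the lists were written. Named were the 10 peaks with the highest fold enrichment, the 5 with the highest pileup, all with a 3' UTR entry, the 5 farthest downstream, the 5 weakest by q, up to 4 per gene list by fold enrichment, and peaks sharing a gene. Others were named after their values were seen. Of the annotation columns, the gene features, the nearest gene with its start and the gene identifier were used, and the others were not. Motif and interval functions were tested on simulated data. Python 3.11.15 was used with numpy 2.4.6, pandas 2.3.3, scipy 1.17.1 and matplotlib 3.10.9.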

Additional observations from a re-analysis of the deposited data

How the results depend on the processing

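Across 5 results, 52 alternative values were computed, and 41 stayed within the interval of the reported value or, for the number of peaks, within 1.5 times of it. The number of peaks, 230, fell to 145 with a fold enrichment of at least 5 and to 146 when only peaks with a 5' UTR entry were kept, since both settings leave peaks out. The median position moved most with the choice of start. It was 10 bp from the nearest transcript start, 147 bp from the gene start that the table lists and 0 bp for peaks with a 5' UTR entry. The median fold enrichment, 5.32, was 5.55 with a q-value under 0.001, 5.49 with a pileup of at least 10 and 5.76 with a fold enrichment of at least 5, all of which remove weaker peaks. The share with CACGTG, 25.7%, fell to 17.4% within 50 bp of the summit. The share with GGGGCGGGG, 18.3%, was 8.70% within 50 bp, 25.2% in the whole peak and 71.3% for GGGCGG. A narrower window holds fewer copies by construction. Joining peaks over 10000 bp or 500000 bp, keeping dense groups, leaving out AC010595.1 as repeated sequence and keeping only peaks at their nearest gene left all 5 values within these limits. No paired analysis was possible because there was 1 library in each group. A pileup of 12 fragments, the median, has an exact Poisson interval of 6.20 to 21.0, so differences between single peaks of this size were not detectable at this depth.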
